A study of Homo sapiens with 9 samples.

Results

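The comparison described here sets 2 knockdown lines of the human triple-negative breast cancer line MDA-MB-231 against each other. Both lines carried a lentiviral pLKO vector with a hairpin against Coco, hairpin 4 in the line called shco4 and hairpin 2 in the line called shco2. The members were the 3 arrays whose labels name hairpin 4 and the 3 whose labels name hairpin 2, 6 of the 9 arrays of the study. The other 3 arrays came from cells with a scramble hairpin in the same kind of stable line. They entered no test reported here, gave part of the estimate of spread, and are used to describe where the control level lay. All lines were grown in DMEM with 10% serum, and no other treatment was named. The labels call the 3 arrays of a line biological replicates. They do not say whether a line is a pool or a clone, or whether the replicates came from separate transductions, so p-values measure the spread between these samples, which may be technical.

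Coco, the product of DAND5, is a secreted protein of the Cerberus and DAN family that binds ligands of the BMP, Nodal and activin families outside the cell and keeps them from their receptors. BMP ligands signal through Smads and are known to switch on genes such as ID1, ID3, SMAD6 and SMAD7. A short hairpin RNA is processed into a small RNA that guides Argonaute proteins to a matching messenger RNA. A pair of hairpins against the same gene shares that target but not its sequence, so genes that differ between the 2 lines are genes on which the 2 knockdown lines are not interchangeable. The hairpins' own sequences are not used here, and Coco itself could not be read, since 0 probe sets carried the symbol DAND5, so the degree of knockdown in each line was not analysed here.

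Values are log2 intensities after setting intensities under 16 to 16, so a value of 4 is the floor. Median intensity per array lay between 122.5 and 129.6. Between arrays, Pearson's r was 0.990 to 0.992 within shco2, 0.986 to 0.988 within shco4 and 0.960 to 0.968 between them, taken over probe sets, so it describes the arrays and tests nothing. The ratio of 3′ to 5′ signal for ACTB, a sign of RNA integrity, was 1.10 ± 0.0153 in shco2 and 1.13 ± 0.00857 in shco4 (SD, n = 3 each). For GAPDH the ratio was 0.914 ± 0.032 and 0.892 ± 0.0108. The ACTB ratio moved with the line; its part in the results was not tested. The 7 marker genes of MDA-MB-231 (VIM, CD44, AXL, KRT18, S100A4, PLAU and ANXA1) were well above the floor on all arrays, the lowest single value being 9.68 for PLAU in shco4.

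The 2 lines differed at a large share of the array. Of 22215 probe sets tested, 6881 (31.0%) were called at an adjusted p under 0.05 (limma's moderated test, Benjamini-Hochberg over all probe sets). Of these, 3299 (14.9%) were higher in shco4 and 3582 (16.1%) were lower. The called probe sets belonged to 4638 genes, 2155 higher and 2551 lower, with 68 genes that had calls in both directions. In bulk RNA, fewer cells of a kind and less RNA per cell cannot be told apart. Differences of at least 2-fold numbered 1147 higher and 1150 lower, and differences of at least 4-fold numbered 156 higher and 109 lower. The arrays of the 2 lines did not overlap at 9089 probe sets (40.9%). At 2936 probe sets all 6 arrays lay at the floor, so no difference could show there. Over all probe sets the median difference was 0.0. Across the 23 chromosomes with at least 100 measured genes, the median difference per chromosome lay between -0.07 and 0.15, and genes in both directions were called on each.

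**Figure D1:**
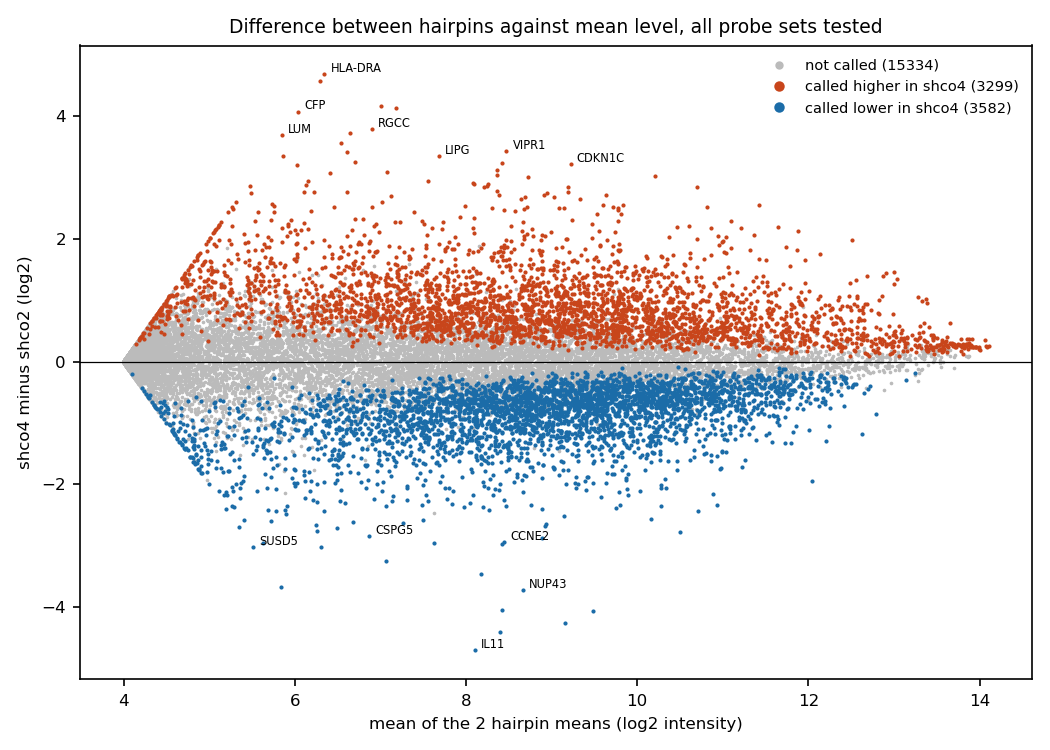
Each point is 1 of 22215 probe sets, with the mean of the 2 hairpin means on the x axis (log2 intensity) and shco4 minus shco2 on the y axis (log2). Orange points were called higher in shco4 (3299), blue points lower (3582), grey points were not called. Calls lie on both sides over most of the range, while at the brightest end they are almost all higher in shco4, and the straight edges at the left are probe sets at the floor in 1 line.

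The genes furthest apart in the upward direction were of several kinds: antigen presentation, complement, a histone, a cell cycle inhibitor and enzymes of lipid and fuel use. HLA-DRA, the alpha chain of the MHC class II molecule HLA-DR, read 4.00 on each shco2 array and 8.80, 9.09 and 8.17 in shco4. It was at least 25.8-fold higher in shco4 (adjusted p = 9.87e-05, limma), since every shco2 array lay at the floor. Control arrays read 7.24, 7.94 and 7.76, so the shco2 line was the one far from the control level.

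CRTAM, an immunoglobulin-family adhesion receptor best known from T cells, lay at the floor on every shco2 array and read 9.18, 8.62 and 7.96 in shco4, at least 24-fold higher (adjusted p = 0.00017). CFP, properdin, which stabilises the alternative complement convertase, was at the floor in shco2 and read 8.27, 7.70 and 8.27 in shco4, at least 16.9-fold higher (adjusted p = 0.000476). LUM, lumican, a collagen-binding proteoglycan, was at the floor in shco2, read 8.21, 7.90 and 7.0 in shco4 and was at least 13-fold higher (adjusted p = 0.000319). For these 3 genes no array of shco4 came near any array of shco2. LUM differed from the other 2 in its control level, which was 4.18, 4.26 and 4.64, close to the floor.

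CDKN1C, the cyclin-dependent kinase inhibitor p57, read 7.10, 8.10 and 7.64 in shco2 and 10.56, 11.04 and 10.91 in shco4. The difference was 3.22 ± 0.27 on the log2 scale (SE, n = 3 each; 9.32-fold; adjusted p = 0.000351). Scramble arrays, at 8.76, 8.99 and 9.21, lay between the lines without touching either. H2BC21, a histone H2B gene, read 4.83, 5.01 and 4.86 in shco2 and 8.45, 8.03 and 8.48 in shco4, a 10.7-fold difference (adjusted p = 5.87e-05).

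Enzymes of fuel use were in the same group. PDK4, the kinase that shuts pyruvate dehydrogenase, read 4.54, 4.00 and 4.00 in shco2 and 8.64, 7.59 and 6.38 in shco4. All 3 shco4 arrays were above all shco2 arrays, but they spread over more than 2 log2 units, and PDK4 was not called when the floor was 64 (difference 1.54). LIPG, endothelial lipase, read 6.32, 5.73 and 5.97 in shco2 and 9.89, 9.35 and 8.83 in shco4, a 10.2-fold difference (adjusted p = 0.00113). ABCC3, an exporter of organic anions, had its control level between the lines: 6.91, 6.83 and 6.67 in shco2, 8.68, 8.73 and 8.74 in scramble and 10.11, 9.77 and 9.91 in shco4. The other 6 of the 15 were RGCC, a regulator of the cell cycle, MFNG, a glycosyltransferase that modifies Notch, PPFIBP2, a liprin, VIPR1, a receptor for vasoactive intestinal peptide, OTUB2, a deubiquitinase, and ADAM28, a metalloprotease. They were between 9.29-fold (ADAM28) and 13.9-fold (RGCC) higher in shco4.

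The gene furthest apart in the downward direction was IL11, a cytokine of the IL-6 family. It read 10.87, 10.70 and 9.79 in shco2, 7.59, 7.98 and 6.54 in scramble and 4.99, 6.52 and 5.73 in shco4. Shco4 was lower by -4.70 ± 0.55 on the log2 scale (SE, n = 3 each; 26.1-fold; adjusted p = 0.00113), with the 3 lines in 3 separate ranges; the highest shco4 array lay just under the lowest control array. A further IL11 probe set gave -4.26 ± 0.53 (adjusted p = 0.00147).

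NUP43, a subunit of the nuclear pore, read 10.36, 10.57 and 10.64 in shco2 and 6.24, 6.97 and 7.18 in shco4, 13.3-fold lower (adjusted p = 0.000139). Its control arrays, at 10.43, 10.39 and 10.61, overlapped shco2 completely. SUSD5 read 6.84, 7.14 and 7.09 in shco2 and lay at the floor on every shco4 array, at least 8.14-fold lower (adjusted p = 0.000242). ANTXR1, a collagen-binding receptor that anthrax toxin uses, read 6.66, 6.83 and 6.6 in shco2 and was at the floor in all shco4 and all scramble arrays, at least 6.48-fold lower in shco4 (adjusted p = 9.82e-06). A further ANTXR1 probe set differed by -0.5 and was not called. These genes show both ways in which the lines parted: for NUP43 shco4 left the control level, for ANTXR1 shco2 did at the called probe set.

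Among the other 11 genes, 3 belong to the start of S phase. CCNE2, cyclin E2, read 9.91, 10.02 and 9.82 in shco2 and 6.49, 7.52 and 6.91 in shco4. GINS1, a subunit of the replicative helicase, read 10.22, 10.37 and 10.37 in shco2 and 6.89, 7.66 and 7.78 in shco4. ORC1, which marks replication origins, read 7.87, 7.46 and 7.42 in shco2 and 4.66, 5.27 and 4.82 in shco4. The groups were far apart for each, with 7.69-fold, 7.35-fold and 6.36-fold lower levels in shco4. KISS1, the kisspeptin precursor, read 6.86, 6.71 and 7.77 in shco2 and 4.00, 4.46 and 4.00 in shco4. FBN1, fibrillin, a microfibril protein, read 9.11, 9.41 and 9.0 in shco2 and 6.89, 7.34 and 6.74 in shco4 at its brighter probe set, 4.53-fold lower (adjusted p = 0.000292). The rest were PDGFRL, OR7E37P, a pseudogene of an olfactory receptor, PLCXD1, CSPG5, a membrane proteoglycan, SGSH, a lysosomal sulfatase, and CSRP2, a LIM domain protein, between 6.39-fold (CSRP2) and 8.11-fold (PDGFRL) lower in shco4. All 30 genes were called whichever of the 9 arrays was left out.

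**Figure D2:**
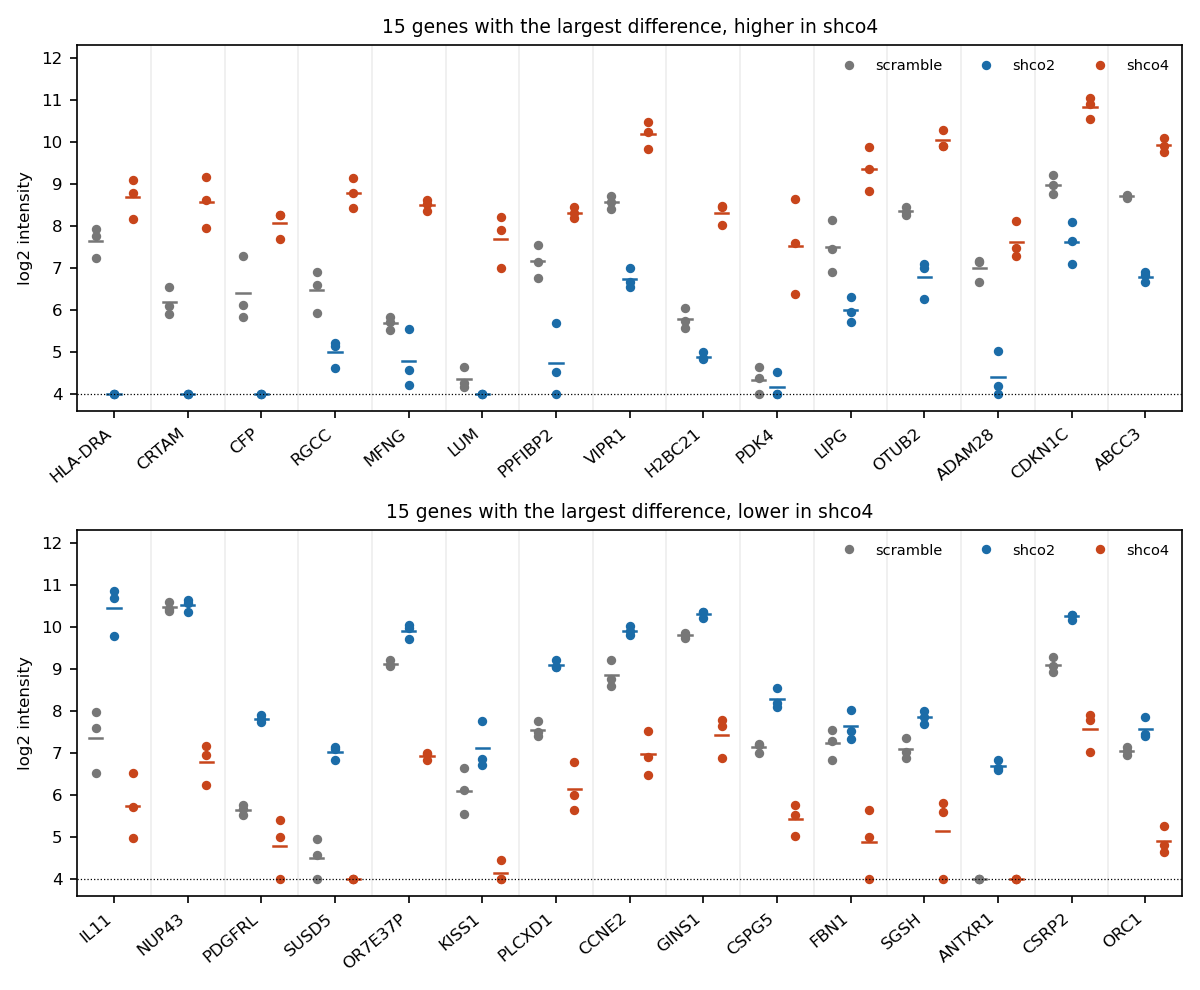
Log2 intensity (y axis) on each of the 9 arrays for the 15 genes with the largest difference in each direction; points are arrays, short bars are the means of 3 arrays, and the dotted line is the floor of 4. HLA-DRA, CRTAM, CFP and LUM lie at the floor on every shco2 array, SUSD5 and ANTXR1 on every shco4 array, and NUP43 overlaps between scramble and shco2.

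For most of the called probe sets the control level lay between the 2 lines. The scramble mean was between the hairpin means at 2299 of the 3299 probe sets higher in shco4 (69.7%) and at 2526 of the 3582 lower in shco4 (70.5%). Within the higher group the control was nearer shco2 at 1104 and nearer shco4 at 1195, and within the lower group nearer shco2 at 1305 and nearer shco4 at 1221. The 2 sides were thus of similar size. At the remaining probe sets the control lay outside both lines: above both at 558 and below both at 442 of those higher in shco4, and at 484 and 572 of those lower. These positions are descriptions without a test, and the hairpin means that set the difference also set the position.

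**Figure D3:**
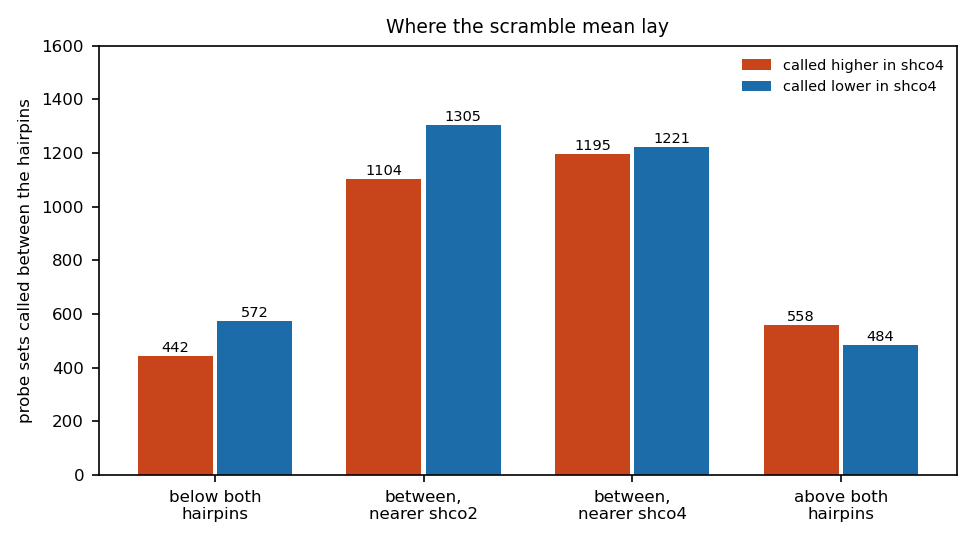
Number of probe sets called between the hairpins (y axis) by where the scramble mean lay (x axis), for those higher in shco4 (orange) and lower in shco4 (blue). The bars between the hairpins are about as tall on the shco2 side (1104 and 1305) as on the shco4 side (1195 and 1221).

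Gene groups are described by 44 lists, each gene read at its probe set with the highest mean, though its other probe sets can differ. Over all 11963 genes read this way, 35.4% were called, 16% higher and 19.3% lower in shco4, and the median difference was 0.0. These shares include genes at or near the floor. Among the 7280 genes at 100 or more on at least 3 arrays, 53.2% were called, 23.6% higher and 29.6% lower. Both sets of shares are the background for every count below, the latter being nearer for lists of well expressed genes. No test was made of a list as a whole.

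**Figure D4:**
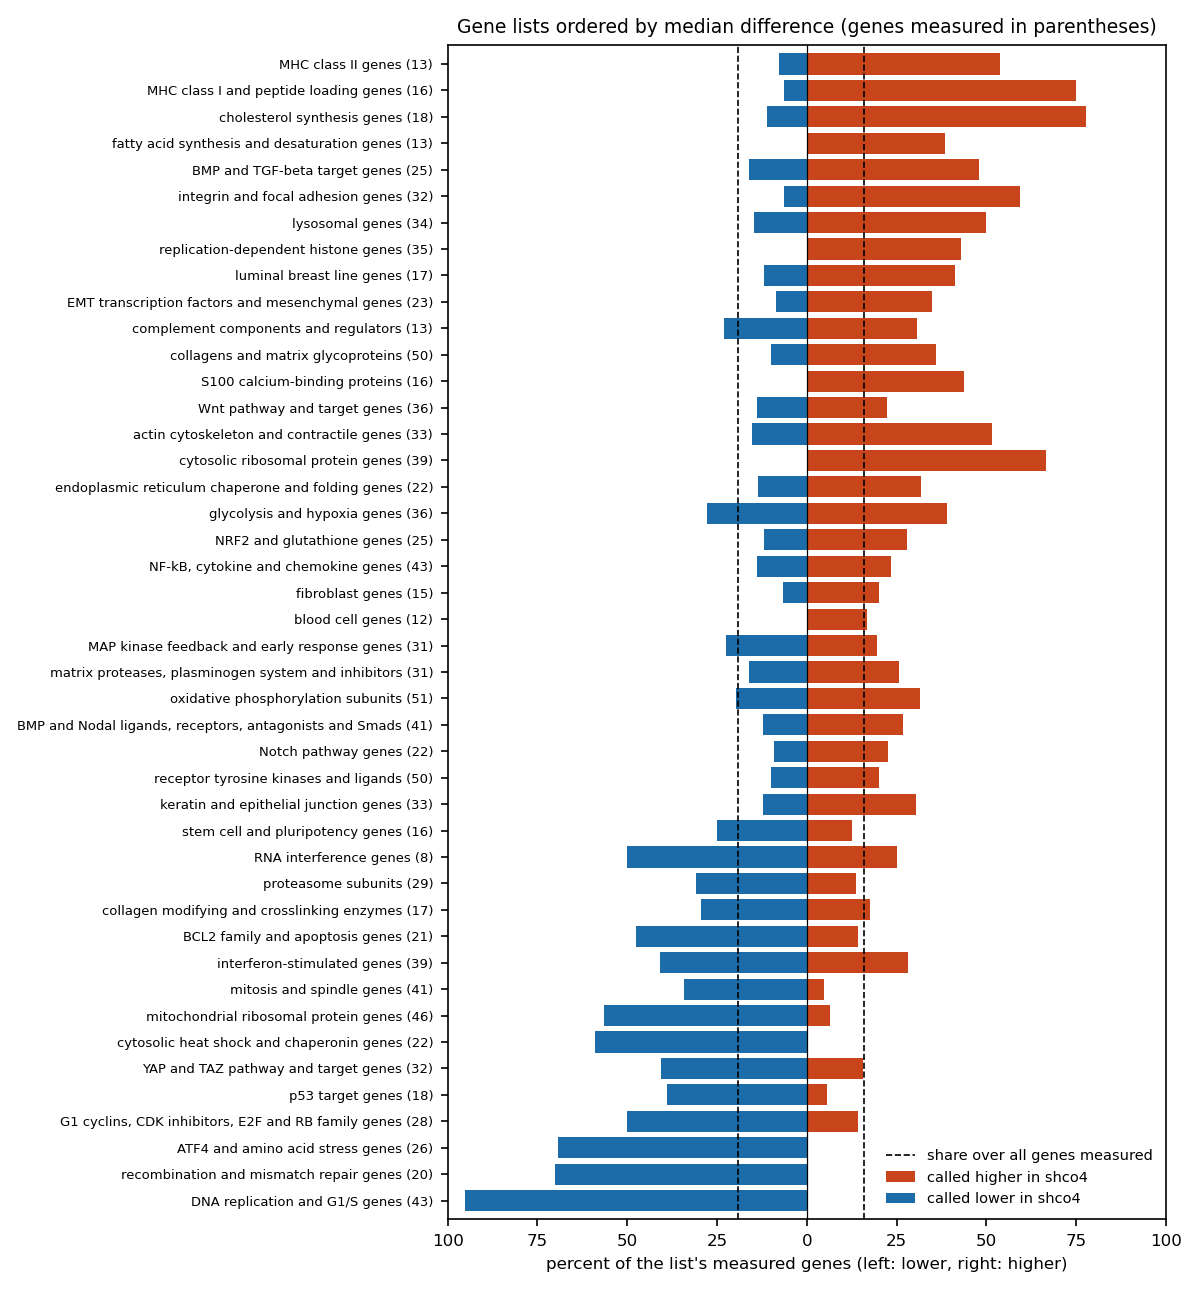
Percent of each list's measured genes called higher (right, orange) or lower (left, blue) in shco4 on the x axis, with the lists on the y axis ordered by their median difference; dashed lines mark the shares over all genes, 16% and 19.3%. The shares among genes at 100 or more on at least 3 arrays, 23.6% and 29.6%, are not drawn. DNA replication genes stand at 95.3% lower, and cholesterol synthesis genes and MHC class I genes at 77.8% and 75.0% higher.

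DNA replication genes were the group with the most complete split. Of 43 measured, 41 were lower in shco4, 0 were higher, and the median difference was -1.32. They cover the whole apparatus: the origin loader, the helicase, the polymerases, the clamp and its loader, and the enzymes of nucleotide supply. CDC6, which loads the helicase at origins, read 10.18, 10.43 and 10.33 in shco2 and 8.04, 8.34 and 8.40 in shco4. RFC4, a subunit of the clamp loader, read 11.32, 11.26 and 11.34 in shco2 and 8.95, 9.42 and 9.38 in shco4. Neither gene's arrays overlapped between the lines, and both were lower by -2.05 on the log2 scale (SE 0.14 and 0.12; adjusted p = 0.000153 and 0.000111, limma).

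CHAF1B, a histone chaperone that acts behind the fork, was lower by -1.44 ± 0.10 (adjusted p = 0.000156), and UNG, the uracil glycosylase, by -0.83 ± 0.03 (adjusted p = 3.49e-05). PCNA, the sliding clamp, was lower by -2.34, CCNE1 by -2.03 and the helicase subunits MCM3 and MCM6 by -1.61 and -1.51. The 2 members that did not pass were GINS3 (-0.47) and RPA1 (0.02). For 40 of the 41 called members the scramble mean lay between the lines, nearer shco2 for 34 of them. The list's median against scramble was 0.43 in shco2 and -0.93 in shco4.

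E2F factors, the transcription factors that drive entry into S phase, are known to bind sites such as TTTGGCGC, TTTCGCGC, TTTCCCGC and TTTGCCGC. RefSeq promoters (GRCh38.p14), from 250 bases before to 50 bases after a start site, were searched for these 4 strings on both strands, matches being allowed to overlap and a gene counted when any of its listed start sites held one. Of 37 replication genes with a promoter in the table, 19 (51.4%) held a match, against 6.08% of all 9563 measured genes and 3.99% of all 27305 genes in the table. Among the 34 mitosis genes the share was 8.82%. Such strings were also present in 10 of 33 histone genes (30.3%) and in 7 of the 15 histone genes higher in shco4 (46.7%). A match is a string of letters and a description only. The promoters of 4 replication genes lower in shco4 are shown as examples that carry such strings within the bases searched. Bases are 5′ to 3′ on the gene's strand, and capitals mark the matches.
GINS1, chr20:25407423-25407722, plus strand: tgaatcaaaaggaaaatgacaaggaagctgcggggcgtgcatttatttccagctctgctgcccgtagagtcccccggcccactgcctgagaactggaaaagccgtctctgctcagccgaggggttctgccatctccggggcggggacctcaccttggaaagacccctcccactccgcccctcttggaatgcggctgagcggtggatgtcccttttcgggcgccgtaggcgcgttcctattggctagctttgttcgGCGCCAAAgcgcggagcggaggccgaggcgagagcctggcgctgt
CDC6, chr17:40287629-40287928, plus strand: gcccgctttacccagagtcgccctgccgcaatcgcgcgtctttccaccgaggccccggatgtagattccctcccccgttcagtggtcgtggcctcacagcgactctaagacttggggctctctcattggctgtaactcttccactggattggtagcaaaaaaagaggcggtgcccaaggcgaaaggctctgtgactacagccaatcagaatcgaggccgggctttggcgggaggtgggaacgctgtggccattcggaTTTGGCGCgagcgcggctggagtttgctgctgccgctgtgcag
MCM3, chr6:52284693-52284992, minus strand: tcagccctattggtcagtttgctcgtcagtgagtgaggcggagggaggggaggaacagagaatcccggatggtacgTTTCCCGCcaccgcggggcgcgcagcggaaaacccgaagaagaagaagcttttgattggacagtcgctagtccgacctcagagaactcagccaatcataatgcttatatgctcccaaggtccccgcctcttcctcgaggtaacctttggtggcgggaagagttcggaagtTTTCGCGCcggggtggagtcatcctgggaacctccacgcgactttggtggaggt
MCM6, chr2:135876394-135876693, minus strand: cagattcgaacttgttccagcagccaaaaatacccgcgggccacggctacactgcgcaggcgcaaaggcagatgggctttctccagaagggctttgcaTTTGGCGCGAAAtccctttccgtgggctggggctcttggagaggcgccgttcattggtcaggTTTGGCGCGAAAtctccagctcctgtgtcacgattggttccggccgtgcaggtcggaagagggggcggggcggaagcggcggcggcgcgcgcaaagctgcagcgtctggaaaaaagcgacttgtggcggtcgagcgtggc
In MCM6 each capital run holds a pair of overlapping matches, 4 in all, and in MCM3 there are 2 separate ones. GINS1 and CDC6 each have 1.

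Genes of mitosis were called lower in shco4 at a share near that of well expressed genes. Of 41 measured, 14 were lower (34.1%) and 2 higher (CKS2 and CDC25B), with a median of -0.36, and 25 did not pass. The share lower was 19.3% over all genes and 29.6% among genes at 100 or more on at least 3 arrays. MKI67, the proliferation antigen Ki-67, read 11.46, 11.40 and 11.41 in shco2 and 9.85, 10.38 and 10.58 in shco4, lower by -1.16 ± 0.17 (adjusted p = 0.00299). AURKB, a kinase of chromosome segregation, read 10.74, 10.85 and 10.88 in shco2 and 9.11, 9.74 and 9.76 in shco4, lower by -1.29 ± 0.18 (adjusted p = 0.0024). MYBL2, a transcription factor of late cell cycle genes, was lower by -2.25 ± 0.41 (adjusted p = 0.00695). CCNB1, the mitotic cyclin, differed by -0.17, TOP2A by -0.28 and CDK1 by -0.41, none of which passed. The median was -0.22 without shco4 replicate 1. The count of 14 fell to 8 when any 1 of the 3 shco2 arrays was left out, and to 8 with the 6 hairpin arrays alone.

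Among 28 G1 cyclins, CDK inhibitors and members of the E2F and RB families, 14 were lower and 4 higher, with a median of -0.57. The 4 that were higher are brakes of the cycle: CDKN1C, CDKN1B, which encodes p27, and the pocket proteins RB1 and RBL2. CDKN1B read 9.93, 10.34 and 9.78 in shco2 and 10.98, 10.87 and 10.88 in shco4, higher by 0.89 ± 0.14 (adjusted p = 0.00383). RB1 and RBL2 were higher by 0.89 and 0.87. CDKN1A, which encodes the inhibitor p21, went the other way, with 10.64, 10.46 and 10.41 in shco2, 9.94, 9.82 and 9.91 in scramble and 9.27, 9.34 and 8.95 in shco4, lower by -1.32 ± 0.11 (adjusted p = 0.000348). The activating factors E2F1, E2F2 and E2F8 were lower by -1.85, -2.05 and -2.08. CDK4, the kinase partner of cyclin D, was lower by -0.81 ± 0.05 and SKP2, which marks p27 for destruction, by -0.97 ± 0.06. MYC was lower by -0.53 ± 0.16 (adjusted p = 0.048), a call that was lost when any of 7 arrays was left out (highest adjusted p = 0.139).

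Genes of homologous recombination and mismatch repair followed replication: 14 of 20 were lower, 0 higher, with a median of -0.87. Known p53 target genes were lower in 7 of 18 cases (38.9%) and higher in 1, with a median of -0.55. Over all genes 19.3% were lower, and among genes at 100 or more on at least 3 arrays 29.6%. Whether p53 itself took part in these differences was not tested. DDB2, a damage sensor, read 8.89, 9.04 and 8.77 in shco2 and 6.52, 6.98 and 6.85 in shco4, lower by -2.12 ± 0.13 (adjusted p = 0.00011). MDM2, the ligase that degrades p53, read 7.57, 7.09 and 6.62 in shco2 and 4.78, 4.19 and 5.05 in shco4, lower by -2.42 ± 0.31 (adjusted p = 0.00167). For p53 targets the control level lay between the lines in 7 of the 8 called genes.

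Replication-dependent histone genes, whose messages are normally made in S phase and lack a poly(A) tail, stood opposite to the replication genes. Whether the signal on these 3′ arrays came from messages without a tail was not tested. Of 35 measured, 15 were higher in shco4 and 0 lower, with a median of 0.42. The median was 0 with a floor of 64, 0.69 without the probe sets at the floor on all 9 arrays and 2.1 among probe sets at 100 or more on at least 3 arrays. H1-2, a linker histone, read 9.09, 9.56 and 9.17 in shco2 and 12.32, 12 and 12.05 in shco4, higher by 2.85 ± 0.15 (adjusted p = 8.34e-05). H4C8 read 6.67, 6.92 and 6.65 in shco2 and 9.33, 9.09 and 8.88 in shco4, higher by 2.35 ± 0.15 (adjusted p = 0.000146). Control arrays sat with shco2 or below for both genes: H1-2 read 9.36, 9.13 and 9.40 and H4C8 read 6.36, 6.33 and 5.99 in scramble. Histone genes of a class are near copies, and their probe sets can share signal, so the 15 are not 15 separate measurements. With only probe sets at 100 or more on at least 3 arrays, 9 were called.

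Interferon-stimulated genes differed in both directions. Of 39 measured, 16 were lower and 11 higher in shco4, with a median of -0.29 that became -0.14 with a floor of 64. RSAD2, viperin, read 8.68, 8.44 and 8.6 in shco2, 6.72, 6.49 and 6.76 in scramble and 5.89, 5.61 and 6.32 in shco4, lower by -2.63 ± 0.18 (adjusted p = 0.000185). IFIT2, which binds viral RNA, read 11.38, 11.35 and 11.37 in shco2 and 9.18, 9.30 and 9.44 in shco4, lower by -2.06 ± 0.10 (adjusted p = 6.18e-05). RIGI, the cytosolic RNA sensor, read 10.31, 10.25 and 10.33 in shco2 and 9.06, 8.85 and 9.01 in shco4, lower by -1.32 ± 0.07 (adjusted p = 9.64e-05). IFI44, OASL, IFIT3, IFIT1 and ISG15 were lower as well, by -1.84, -2.11, -1.75, -1.31 and -1.17. No array overlapped for RSAD2, IFIT2 or RIGI.

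Of the 11 higher genes, IRF1, a transcription factor induced by interferon gamma, read 8.85, 8.76 and 8.83 in shco2 and 9.79, 9.82 and 9.71 in shco4, higher by 0.96 ± 0.05 (adjusted p = 5.98e-05). IFITM2, a membrane protein that restricts virus entry, read 10.71, 11.17 and 10.97 in shco2 and 12.91, 12.79 and 12.64 in shco4, higher by 1.83 ± 0.12 (adjusted p = 0.000149). IFITM1 and IFITM3 were higher by 1.34 and 1.08, GBP2, a guanylate-binding protein, by 1.76, TRIM22 by 1.93, and TAP1, the peptide transporter of the class I pathway, by 1.14. MX1 was higher by 0.40, and OAS1 (-0.69) and IFI16 (-0.40) did not pass.

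A pair of TTTC strings with 2 bases between them, the core of the interferon-stimulated response element to which IRF and STAT complexes bind, was searched in the same promoters on both strands. It was present in 21 of 30 interferon-stimulated genes with a promoter in the table (70.0%), against 4.13% of all measured genes and 4.38% of all genes in the table. Of the genes lower in shco4, 11 of 13 held it (84.6%), and of those higher, 5 of 7 did (71.4%). Genes with this string were therefore found in both directions. A pair of promoters from each direction is shown for that reason, RSAD2 and ISG15 lower in shco4, IFITM1 and TAP1 higher; capitals mark the matches.
RSAD2, chr2:6877527-6877826, plus strand: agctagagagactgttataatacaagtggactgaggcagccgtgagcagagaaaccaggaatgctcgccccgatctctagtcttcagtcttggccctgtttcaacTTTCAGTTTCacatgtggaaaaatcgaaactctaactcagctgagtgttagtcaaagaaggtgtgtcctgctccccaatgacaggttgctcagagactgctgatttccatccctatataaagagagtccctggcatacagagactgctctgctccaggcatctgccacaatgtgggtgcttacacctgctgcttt
ISG15, chr1:1013247-1013546, plus strand: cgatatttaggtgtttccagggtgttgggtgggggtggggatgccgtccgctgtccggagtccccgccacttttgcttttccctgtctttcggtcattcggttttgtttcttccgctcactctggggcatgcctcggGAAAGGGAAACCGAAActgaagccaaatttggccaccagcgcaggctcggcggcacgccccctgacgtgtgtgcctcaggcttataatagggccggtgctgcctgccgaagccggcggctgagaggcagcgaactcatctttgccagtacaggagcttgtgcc
IFITM1, chr11:313790-314089, plus strand: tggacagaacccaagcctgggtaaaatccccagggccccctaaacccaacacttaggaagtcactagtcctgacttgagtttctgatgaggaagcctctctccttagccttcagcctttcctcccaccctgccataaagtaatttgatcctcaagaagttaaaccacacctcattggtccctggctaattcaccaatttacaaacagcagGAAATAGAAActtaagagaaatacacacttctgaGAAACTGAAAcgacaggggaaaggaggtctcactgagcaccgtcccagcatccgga
TAP1, chr6:32853655-32853954, minus strand: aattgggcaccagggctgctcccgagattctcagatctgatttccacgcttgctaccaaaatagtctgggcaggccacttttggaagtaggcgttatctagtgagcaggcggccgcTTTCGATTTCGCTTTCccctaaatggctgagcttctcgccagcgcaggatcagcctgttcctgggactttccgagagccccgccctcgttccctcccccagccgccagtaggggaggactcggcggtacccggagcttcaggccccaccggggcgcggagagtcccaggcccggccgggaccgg
In ISG15 and TAP1 the capital run holds 2 overlapping matches, while IFITM1 has 2 apart from each other.

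MHC class I genes and their peptide loading partners were higher in 12 of 16 cases and lower in 1. The median was 0.98 and became 0.74 after quantile normalization. HLA-B read 13.01, 12.75 and 12.74 in shco2 and 13.98, 13.83 and 13.68 in shco4, higher by 1.0 ± 0.12 (adjusted p = 0.00109). HLA-F was higher by 1.75 ± 0.20 (adjusted p = 0.000978) and PSMB9, a subunit of the immunoproteasome, by 1.13 ± 0.10 (adjusted p = 0.000467). PSME1, a subunit of the proteasome activator used with it, was higher by 1.12 ± 0.04 (adjusted p = 3.61e-05). TAPBP, tapasin, which bridges TAP and the class I molecule, was the exception, lower by -1.05 ± 0.08 (adjusted p = 0.000291), though its 2 probe sets were called in opposite directions. Genes of the HLA family are similar in sequence, and their probe sets may share signal.

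Of 13 MHC class II genes 7 were higher and 1 lower, with a median of 1.42. CD74, the invariant chain that guards the class II groove, read 10.38, 10.32 and 10.30 in shco2, 11.11, 11.31 and 11.28 in scramble and 12.64, 12.38 and 12.20 in shco4, higher by 2.07 ± 0.11 (adjusted p = 8.63e-05). The 3 lines were in 3 separate ranges. HLA-DRB1 read 7.49, 8.10 and 7.11 in shco2 and 10.54, 10.52 and 9.90 in shco4, higher by 2.75 ± 0.34 (adjusted p = 0.00143), and HLA-DMA, which loads the peptide, was higher by 1.79 ± 0.21 (adjusted p = 0.00115). HLA-DOB, an inhibitor of that loading, was lower by -1.29 ± 0.17 (adjusted p = 0.00201), a call that was lost with a floor of 64. CIITA, the master activator of class II genes, differed by 0.27 and did not pass. Of 12 blood cell genes 2 were higher, CD14 and CD79A, and LYZ and NKG7 lay at the floor on all 9 arrays. Summed intensity of the blood list was 284 to 333 in shco2, 395 to 580 in shco4 and 323 to 422 in scramble. CD14 read 5.90, 6.16 and 5.27 in shco2 and 7.96, 6.95 and 6.77 in shco4, and its call (adjusted p = 0.0296) was lost when any of 5 arrays was left out, to 0.0886 at most.

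**Figure D5:**
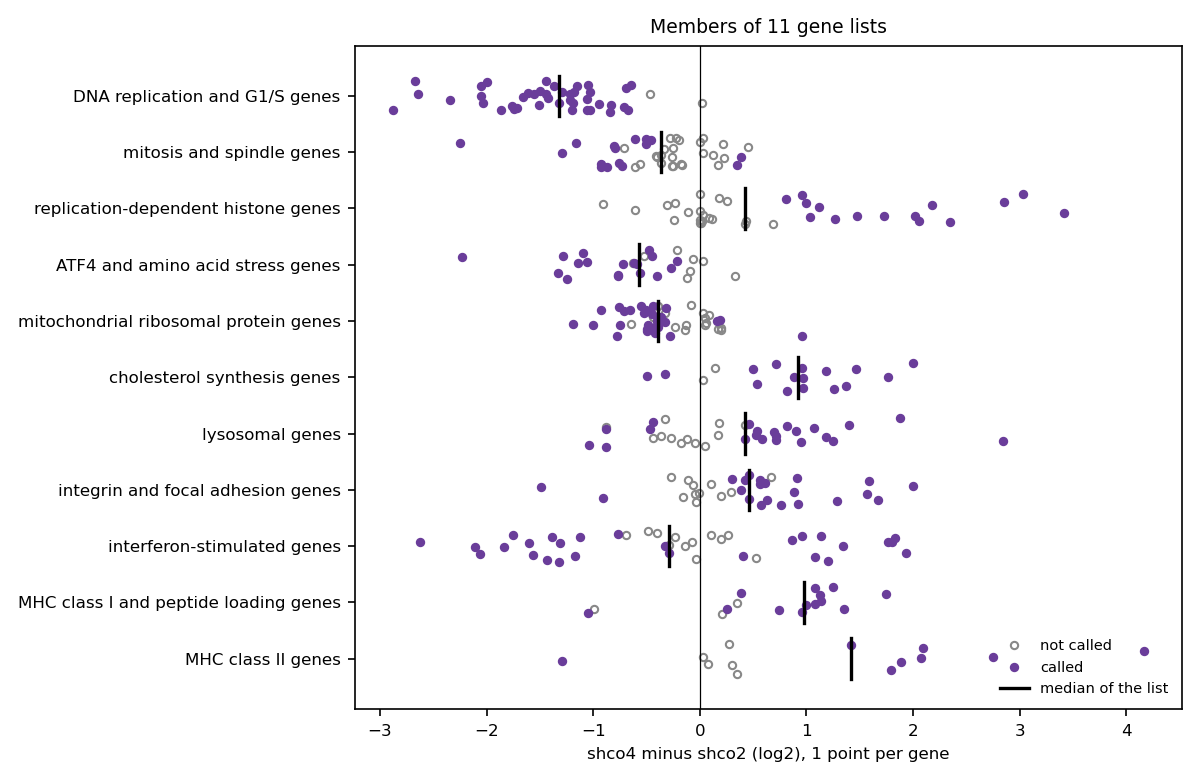
Difference between the lines (shco4 minus shco2, log2, x axis) for every measured member of 11 lists (y axis); filled points were called, open points were not, and the black bar is the list's median. Replication genes lie almost all left of 0, histones and cholesterol genes mostly right, and interferon-stimulated genes on both sides.

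Genes of cholesterol synthesis were higher in shco4. Of 18 measured, 14 were higher and 2 lower (SC5D and EBP), with a median of 0.92. SREBF2, the transcription factor that drives this pathway, read 7.82, 7.74 and 7.47 in shco2, 8.58, 8.22 and 8.57 in scramble and 9.75, 9.74 and 9.55 in shco4, higher by 2.0 ± 0.13 (adjusted p = 0.000149). LSS, lanosterol synthase, read 10.24, 10.18 and 10.38 in shco2 and 11.44, 11.62 and 11.85 in shco4, higher by 1.37 ± 0.15 (adjusted p = 0.00087). MSMO1, a sterol oxidase, and SQLE, squalene epoxidase, were higher by 1.26 ± 0.16 and 0.97 ± 0.13, and INSIG1, the sterol sensor of the endoplasmic reticulum, by 0.97. All shco4 arrays were above all shco2 arrays for SREBF2 and LSS.

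Fatty acid genes moved less. Of 13 measured, 5 were higher and 0 lower, with a median of 0.55, and without shco2 replicate 1 the count was 3. PNPLA3, a lipid droplet hydrolase, read 5.11, 4.07 and 4.27 in shco2 and 7.31, 6.86 and 6.90 in shco4, higher by 2.54 ± 0.31 (adjusted p = 0.00139). ELOVL5, a fatty acid elongase, was higher by 0.73 ± 0.02 (adjusted p = 3.22e-05). This was the only 1 of its 3 probe sets to be called, and they ranged from -0.47 to 0.84. SREBF1 was higher by 0.98 ± 0.22 (adjusted p = 0.0153), which became 0.0516 without shco2 replicate 1, and ACACA was higher by 0.60 ± 0.15 (adjusted p = 0.0214), a call lost without any 1 of the 3 shco2 arrays. A dimmer ACACA probe set was called the other way, with -1.69.

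Of 34 lysosomal genes 17 were higher and 5 lower, with a median of 0.42. CTSO, a cathepsin, read 6.59, 7.26 and 6.52 in shco2 and 10.08, 9.49 and 9.33 in shco4, higher by 2.84 ± 0.26 (adjusted p = 0.000483). GRN, progranulin, read 11.09, 11.14 and 10.97 in shco2 and 12.43, 12.17 and 12.15 in shco4, higher by 1.18 ± 0.11 (adjusted p = 0.000419). CTSD, the main aspartic protease of the lysosome, was higher by 1.88. GLA, alpha-galactosidase, went the other way with -1.04 ± 0.08 (adjusted p = 0.000202), as did the membrane pump subunit ATP6V1H with -0.47 ± 0.04 (adjusted p = 0.000378).

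Glycolysis and hypoxia genes did not divide by direction: 14 of 36 were higher and 10 lower, with a median of 0.15. The count of 14 was 9 on leaving out shco2 replicate 2 or 3 and 8 on leaving out shco4 replicate 3. PKM, pyruvate kinase, read 12.56, 12.39 and 12.31 in shco2 and 13.16, 13.30 and 13.18 in shco4, higher by 0.79 ± 0.08 (adjusted p = 0.000707). MXI1, a MYC antagonist, was higher by 2.14 ± 0.21 (adjusted p = 0.000589) and KDM3A, a histone demethylase, by 1.41 ± 0.14 (adjusted p = 0.000556). HK1 and PFKFB3, which act at the entry of glycolysis, were lower by -1.17 ± 0.12 and -1.17 ± 0.09 (adjusted p = 0.000667 and 0.000249).

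Subunits of oxidative phosphorylation were also mixed, with 16 of 51 higher, 10 lower and a median of 0.06. The 16 became 9 after quantile normalization, 8 with log2(value + 16) and 10 without the probe sets at the floor on all 9 arrays. NDUFC1, a subunit of complex I, read 12.03, 11.91 and 11.95 in shco2, 11.56, 11.37 and 11.40 in scramble and 9.72, 9.82 and 9.89 in shco4, lower by -2.16 ± 0.07 (adjusted p = 2.98e-05). COX4I1, a subunit of cytochrome oxidase, was higher by 0.72 ± 0.03 (adjusted p = 4.07e-05), and COX8A, of the same complex, lower by -1.05 ± 0.11 (adjusted p = 0.00083). NRF2 and glutathione genes were higher in 7 of 25 cases and lower in 3. HMOX1, heme oxygenase, read 6.92, 6.43 and 6.53 in shco2 and 8.33, 8.18 and 7.76 in shco4, higher by 1.47 ± 0.20 (adjusted p = 0.00199), and GPX4, which detoxifies lipid peroxides, was higher by 0.90 ± 0.11 (adjusted p = 0.00129).

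Of 26 genes of the ATF4 and amino acid stress response 18 were lower and 0 higher, with a median of -0.58. CHAC1, which degrades glutathione, read 8.43, 7.90 and 7.81 in shco2 and 5.58, 6.08 and 5.78 in shco4, lower by -2.23 ± 0.26 (adjusted p = 0.0012). SHMT2, the mitochondrial serine hydroxymethyltransferase, read 11.71, 11.61 and 11.62 in shco2 and 10.16, 10.43 and 10.58 in shco4, lower by -1.25 ± 0.11 (adjusted p = 0.000382). PSAT1, of serine synthesis, and MTHFD2, of mitochondrial folate metabolism, were lower by -1.28 ± 0.19 and -1.33 ± 0.17. No array overlapped for CHAC1 or SHMT2.

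Of 22 cytosolic heat shock and chaperonin genes 13 were lower and 0 higher, with a median of -0.40. Against scramble the list's median was 0.39 in shco2 and 0.02 in shco4, so the shco2 line stood away from control. Among the called genes the scramble mean lay between the lines for 6, nearer shco4 each time, and outside both for 7. HSPH1, a large heat shock protein, read 11.80, 11.75 and 11.74 in shco2, 11.25, 11.24 and 11.11 in scramble and 10.55, 10.60 and 10.82 in shco4, lower by -1.11 ± 0.08 (adjusted p = 0.000164). CCT6A, a subunit of the chaperonin that folds actin and tubulin, was lower by -0.65 ± 0.06 (adjusted p = 0.000564). Endoplasmic reticulum chaperones did not follow: 7 of 22 were higher and 3 lower, with a median of 0.17, and the 7 became 3 without shco2 replicate 3 and 4 without any one of shco2 replicates 1 and 2 and shco4 replicates 1 and 2. PDIA6, a disulfide isomerase, was higher by 0.29 ± 0.04 (adjusted p = 0.00137).

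Mitochondrial and cytosolic ribosomal proteins went in opposite directions. Of 46 mitochondrial ones 26 were lower and 3 higher, with a median of -0.39. Against scramble their median was 0.41 in shco2 and 0.01 in shco4. For 18 called genes the scramble mean lay between the lines, nearer shco4 for 16, and for 11 it lay outside both. MRPL17 read 11.40, 11.46 and 11.38 in shco2, 10.61, 10.47 and 10.48 in scramble and 10.28, 10.22 and 10.16 in shco4, lower by -1.19 ± 0.05 (adjusted p = 4.26e-05). MRPL48 was higher by 0.96 ± 0.05 (adjusted p = 9.64e-05). Of 39 cytosolic ones 26 were higher and 0 lower, with a median of 0.21, but this direction depends on the scaling: after quantile normalization 3 were higher, the median was -0.02, and RPL27 turned from 0.20 to -0.04. Without the probe sets at the floor on all 9 arrays 15 were called, and with log2(value + 16) 11. RPL11 was higher by 0.35 ± 0.02 (adjusted p = 0.000118) under the authors' scaling and by 0.13 after quantile normalization. Proteasome subunits were lower in 9 of 29 cases and higher in 4, and after quantile normalization 14 were lower.

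Adhesion and cytoskeleton genes were more often higher than lower in shco4. Of 32 integrin and focal adhesion genes 19 were higher and 2 lower, with a median of 0.46. TNS3, a tensin that ties integrins to actin, read 9.56, 9.84 and 9.69 in shco2, 11.23, 10.97 and 11.11 in scramble and 11.78, 11.59 and 11.70 in shco4, higher by 2.0 ± 0.10 (adjusted p = 6.02e-05). ITGA6, the integrin alpha 6 chain, read 9.70, 9.51 and 9.43 in shco2 and 11.03, 11.20 and 11.19 in shco4, higher by 1.59 ± 0.10 (adjusted p = 0.000122). VCL, vinculin, read 10.76, 11.07 and 11.19 in shco2 and 12.44, 12.60 and 12.69 in shco4, higher by 1.57 ± 0.12 (adjusted p = 0.000227). In scramble ITGA6 read 11.49, 11.34 and 11.23 and VCL 12.47, 12.56 and 12.56, so for both it was shco2 that stood away from control. The list's median against scramble was -0.52 in shco2 and -0.09 in shco4. FERMT2, kindlin-2, an activator of integrins, was lower in shco4 by -1.49 ± 0.08 (adjusted p = 9.42e-05), with control at 10.75, 10.88 and 10.73 and shco2 at 11.02, 11.03 and 10.77.

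Of 33 actin cytoskeleton genes 17 were higher and 5 lower, with a median of 0.25 that became 0.15 after quantile normalization. MSN, moesin, which links actin to the membrane, was higher by 1.10 ± 0.09 (adjusted p = 0.000329), and CNN3, a calponin, by 0.93 ± 0.07 (adjusted p = 0.000274). MYL9, a myosin light chain, read 11.03, 11 and 10.88 in shco2 and 8.74, 9.18 and 8.49 in shco4, lower by -2.17 ± 0.20 (adjusted p = 0.000484). S100 calcium-binding proteins were higher in 7 of 16 cases and lower in 0, with a median of 0.32 that became 0.17 after quantile normalization and 0.63 among probe sets at 100 or more on at least 3 arrays. S100A4, a metastasis-associated member, read 12, 12.32 and 12.22 in shco2, 13.48, 13.41 and 13.39 in scramble and 13.68, 13.60 and 13.61 in shco4, higher by 1.45 ± 0.08 (adjusted p = 9.09e-05).

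Of 50 collagens and matrix glycoproteins 18 were higher and 5 lower, with a median of 0.38 that became 0.12 with a floor of 64 and 0.67 among probe sets at 100 or more on at least 3 arrays. COL6A1, a chain of collagen VI, read 9.47, 9.33 and 9.63 in shco2 and 10.94, 10.58 and 10.85 in shco4, higher by 1.31 ± 0.14 (adjusted p = 0.000757). Of its 8 probe sets 2 were called, both higher, and all 8 ranged from -0.09 to 1.46. COL18A1 was higher by 1.91 ± 0.21 (adjusted p = 0.000948) and LAMA5, a laminin chain, by 1.2 ± 0.13 (adjusted p = 0.000891). ECM1 was lower by -1.41 ± 0.15 (adjusted p = 0.000875). Among 17 collagen enzymes 3 were higher and 5 lower, a count that dropped to 2 with the 6 hairpin arrays alone or without shco4 replicate 2, and to 3 without shco2 replicate 1, shco2 replicate 2, shco4 replicate 1 or shco4 replicate 3. LOXL2, which crosslinks collagen, read 9.93, 10.08 and 10.02 in shco2, 12.17, 12.10 and 12.13 in scramble and 11.82, 11.93 and 11.98 in shco4, higher by 1.90 ± 0.05 (adjusted p = 2.62e-05). Among 31 matrix proteases and inhibitors 8 were higher and 5 lower. PLAU, the urokinase, read 11.07, 11.73 and 11.51 in shco2 and 9.68, 9.89 and 10.11 in shco4, lower by -1.55 ± 0.21 (adjusted p = 0.00216), and its receptor PLAUR was lower by -1.60 ± 0.10 (adjusted p = 0.000124). TIMP1 and TIMP3, inhibitors of matrix metalloproteases, were higher by 0.84 ± 0.09 and 1.02 ± 0.12, and ADAM10 by 1.31 ± 0.10 (adjusted p = 0.000213).

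Mesenchymal and epithelial genes did not trade places between the lines. Of 23 genes of the epithelial to mesenchymal transition 8 were higher and 2 lower, and of 33 keratin and junction genes 10 were higher and 4 lower. SNAI2, a repressor of epithelial genes, read 9.68, 9.76 and 9.63 in shco2 and 10.39, 10.53 and 10.59 in shco4, higher by 0.81 ± 0.07 (adjusted p = 0.000305). CDH1, E-cadherin, which such repressors act on, was higher too, with 4.93, 5.84 and 4.81 in shco2 and 7.51, 7.93 and 7.72 in shco4, a difference of 2.53 ± 0.32 (adjusted p = 0.00148). CDH11, a mesenchymal cadherin, was higher by 1.77 ± 0.16 (adjusted p = 0.000431), KRT19 by 1.08 ± 0.11 (adjusted p = 0.000751) and VIM, vimentin, by 0.38 ± 0.04 (adjusted p = 0.00064). EPCAM, an epithelial adhesion molecule, was lower by -1.15 ± 0.07 (adjusted p = 0.000118). AXL, a receptor kinase of mesenchymal breast lines, read 13.06, 12.97 and 13.02 in shco2, 13.16, 13.14 and 13.28 in scramble and 10.84, 11.14 and 11.26 in shco4, lower by -1.94 ± 0.11 (adjusted p = 8.63e-05). It was shco4 that stood away from control at AXL.

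Marker genes of other cells are given beside these groups. Of 17 luminal breast line genes 7 were higher and 2 lower. Their summed intensity was 14756 to 15184 in shco2, 23060 to 24544 in shco4 and 27216 to 30858 in scramble, and most of it came from the keratins KRT7, KRT8, KRT18 and KRT19, all higher in shco4. PGR and FOXA1, 2 of the 17, lay at the floor on all 9 arrays. Of 15 fibroblast genes 3 were higher (S100A4, COL1A2 and LUM) and 1 lower (ACTA2). Their counts were near the background shares. Their summed intensity was 4894 to 5885 in shco2, 13365 to 14225 in shco4 and 11556 to 12290 in scramble. S100A4, also a marker of MDA-MB-231 itself, made up most of that sum, and POSTN, FAP and DPT lay at the floor on all 9 arrays. The part of these markers in the other differences was not tested.

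Genes of the pathway that Coco acts on were called about as often as all genes. Of 41 BMP, Nodal and activin ligands, receptors, antagonists and Smads 11 were higher and 5 lower, with a median of 0.06. Among the ligands BMP4 stood out, with 9.16, 9.52 and 9.43 in shco2, 11.50, 11.30 and 11.31 in scramble and 11.66, 11.55 and 11.47 in shco4, higher by 2.19 ± 0.11 (adjusted p = 6.2e-05). Its shco2 arrays were far below the other 6. INHBB, the activin beta B chain, read 7.38, 7.41 and 7.52 in shco2 and 8.94, 9.42 and 9.28 in shco4, higher by 1.78 ± 0.15 (adjusted p = 0.000312). GDF11 was lower by -1.59 ± 0.16 (adjusted p = 0.000607), with 1 of its 3 probe sets called (differences from -1.59 to 0.0). INHBA, the activin beta A chain, differed by -0.47 ± 0.24 (adjusted p = 0.217), and NODAL by -0.11, neither of which passed. BMP2 lay close to the floor in every line and was higher by 0.66 (adjusted p = 0.000764), a call lost with a floor of 64.

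Among receptors BMPR2 and ACVR2A were higher by 1.18 and 0.77 and ACVR2B lower by -0.54. Of the Smads, SMAD3, which carries activin, Nodal and TGF-beta signals, read 9.16, 9.27 and 9.23 in shco2 and 9.89, 10.05 and 10.30 in shco4, higher by 0.86 ± 0.11 (adjusted p = 0.00139). SMAD4 differed by -0.12 and SMAD1 by 0.06, and neither passed. FSTL1, a secreted follistatin-like protein, read 11.72, 11.72 and 11.62 in shco2, 12.54, 12.43 and 12.10 in scramble and 10.28, 10.50 and 10.45 in shco4, lower by -1.28 ± 0.12 (adjusted p = 0.00047). Both knockdown lines were below control at FSTL1, shco4 by more.

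Of 25 BMP and TGF-beta target genes 12 were higher and 4 lower, with a median of 0.51 that became 0.17 with a floor of 64. The inhibitory Smads, direct targets of BMP signals, were higher: SMAD6 read 6.23, 6.5 and 6.03 in shco2 and 7.88, 7.58 and 7.49 in shco4 (1.40 ± 0.19; adjusted p = 0.00208). SMAD7 read 7.39, 7.91 and 7.18 in shco2 and 8.79, 8.75 and 8.55 in shco4 (1.2 ± 0.21; adjusted p = 0.0054). The ID genes, the standard readout of BMP signals, did not follow as a family. ID1 read 11.30, 11.59 and 10.90 in shco2 and 11.77, 11.50 and 11.03 in shco4, with overlapping arrays (0.17 ± 0.31; adjusted p = 0.806). ID3 read 9.96, 9.86 and 9.44 in shco2 and 9.99, 9.10 and 8.48 in shco4 (-0.56 ± 0.47; adjusted p = 0.454), again with overlap. ID2 read 8.01, 8.81 and 7.88 in shco2 and 10.38, 9.81 and 9.0 in shco4 (1.49 ± 0.41; adjusted p = 0.0342), a call that was lost when any of 6 arrays was left out, to 0.107 at most. TGFBI, a matrix protein induced by TGF-beta, was higher by 2.52, while IL11 and CCN2, also known TGF-beta targets, were lower by -4.26 and -2.56.

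CCN2 is shared with the YAP and TAZ list, where 13 of 32 genes were lower and 5 higher, with a median of -0.43. TEAD4, a DNA-binding partner of YAP, read 9.33, 9.34 and 9.37 in shco2 and 7.85, 7.87 and 8.12 in shco4, lower by -1.40 ± 0.11 (adjusted p = 0.000254). F3, tissue factor, read 12.32, 12.54 and 12.53 in shco2 and 10.92, 11.38 and 11.09 in shco4, lower by -1.33 ± 0.13 (adjusted p = 0.000556). TEAD1, YAP1 and ANKRD1 were lower by -1.55, -0.74 and -1.0. WWTR1, which encodes TAZ, read 8.80, 9.54 and 9.31 in shco2 and 8.25, 8.86 and 9.32 in shco4, with overlapping arrays (-0.40 ± 0.33; adjusted p = 0.439).

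Other signalling groups were near the background shares. Of 36 Wnt genes 8 were higher and 5 lower, the 8 becoming 5 without shco2 replicate 3. FZD7, a Wnt receptor, read 9.57, 9.73 and 9.34 in shco2 and 11.24, 11 and 11.07 in shco4, higher by 1.56 ± 0.12 (adjusted p = 0.000258). LEF1, a nuclear partner of beta-catenin, read 7.46, 7.39 and 7.53 in shco2, 5.47, 5.82 and 5.40 in scramble and 5.29, 6.02 and 5.27 in shco4, lower by -1.93 ± 0.22 (adjusted p = 0.00103). LGR5, a receptor for R-spondins, lay at the floor on every shco2 array and read 5.68, 5.88 and 6.18 in shco4, at least 3.77-fold higher (adjusted p = 0.000178), a call lost with a floor of 64. Of 22 Notch genes 5 were higher and 2 lower, MFNG being higher by 3.72 ± 0.33 (adjusted p = 0.00039) and its relative RFNG lower by -1.07 ± 0.14 (adjusted p = 0.00177).

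Of 50 receptor tyrosine kinases and ligands 10 were higher and 5 lower. NRP2, a coreceptor for VEGF, was higher by 1.46 ± 0.14 (adjusted p = 0.000489), and PDGFC, a growth factor, by 0.89 ± 0.06 (adjusted p = 0.000169). ERBB3 was lower by -0.72 ± 0.07 (adjusted p = 0.000568). Feedback genes of the MAP kinase pathway numbered 6 higher and 7 lower of 31, the 7 becoming 4 with the 6 hairpin arrays alone and without scramble replicate 2, shco2 replicate 1, shco4 replicate 1 or shco4 replicate 2. DUSP1, a phosphatase of MAP kinases, read 11.17, 11.44 and 11.21 in shco2 and 8.86, 9.34 and 9.61 in shco4, lower by -2.0 ± 0.21 (adjusted p = 0.000736). The Sprouty genes SPRY1 and SPRY2, which restrain receptor signals, were higher by 1.73 ± 0.27 and 0.82 ± 0.07 (adjusted p = 0.00343 and 0.000289).

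NF-kB, cytokine and chemokine genes were higher in 10 of 43 cases and lower in 6. TNFSF10, the death ligand TRAIL, read 8.21, 8.75 and 8.71 in shco2, 10.87, 11.09 and 11.19 in scramble and 11.37, 11.23 and 10.75 in shco4, higher by 2.56 ± 0.21 (adjusted p = 0.00033). Control and shco4 overlapped there, and shco2 was apart. IL6 read 10.20, 10.18 and 10.22 in shco2 and 8.65, 8.85 and 8.93 in shco4, lower by -1.39 ± 0.15 (adjusted p = 0.000902), so IL6 and its relative IL11 shared a direction. RELA, a subunit of NF-kB, was higher by 0.71 ± 0.06 (adjusted p = 0.000294). Of 13 complement genes 4 were higher and 3 lower, and 2 were higher with the 6 hairpin arrays alone. CLU, clusterin, was higher by 1.34 ± 0.10 (adjusted p = 0.000252). BCL2 family and apoptosis genes were lower in 10 of 21 cases and higher in 3. BIK, a killer protein of the family, was lower by -1.81 ± 0.20 (adjusted p = 0.000949). DIABLO, released from mitochondria in apoptosis, was lower by -0.75 ± 0.03 (adjusted p = 4.89e-05). BCL2 was higher by 0.99 ± 0.11 (adjusted p = 0.00102), with 1 of its 4 probe sets called (differences from 0.19 to 0.99).

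Genes of the machinery on which hairpins depend were called in both directions. Of 8 RNA interference genes 4 were lower and 2 higher. AGO1 and AGO3, Argonaute proteins, were lower by -1.02 ± 0.13 and -1.22 ± 0.17 (adjusted p = 0.00167 and 0.00218), and AGO4 was higher by 0.88 ± 0.14 (adjusted p = 0.00436). TARBP2, a partner of Dicer, read 9.81, 9.87 and 9.59 in shco2, 8.88, 8.96 and 9.04 in scramble and 8.25, 8.58 and 8.58 in shco4, lower by -1.29 ± 0.11 (adjusted p = 0.000416). DICER1 was higher by 0.55 ± 0.16 (adjusted p = 0.0429), a call lost when any of 7 arrays was left out, to 0.107 at most. Of the 6 DICER1 probe sets only this 1 was called, and they ranged from -0.37 to 0.55. The part of the differences in RNA interference genes in the others was not tested.

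Stem cell genes gave no common direction, with 2 of 16 higher and 4 lower. ALDH1A3, an aldehyde dehydrogenase used to mark breast stem cells, read 5.51, 5.52 and 5.70 in shco2, 7.29, 7.29 and 7.15 in scramble and 7.59, 6.91 and 6.89 in shco4, higher by 1.55 ± 0.19 (adjusted p = 0.00132). CD44, a hyaluronan receptor of the same marker set, read 11.91, 11.76 and 11.83 in shco2 and 12.79, 12.72 and 12.63 in shco4, higher by 0.88 ± 0.06 (adjusted p = 0.000202). CD24, low in cells called stem-like, read 8.06, 8.78 and 7.98 in shco2 and 5.96, 6.15 and 5.88 in shco4, lower by -2.28 ± 0.21 (adjusted p = 0.000506). KLF4 was lower by -1.50 ± 0.27 (adjusted p = 0.00601) and PROCR, a receptor of protein C, by -1.67 ± 0.19 (adjusted p = 0.000987). SOX2 was near the floor with overlapping arrays (-0.05 ± 0.40; adjusted p = 1.0), NANOG lay at the floor on all 9 arrays, and POU5F1 had no probe set of its own.

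The common reference genes set the scale for small differences. GAPDH read 13.56, 13.34 and 13.42 in shco2 and 13.70, 13.72 and 13.68 in shco4, higher by 0.26 ± 0.06 (adjusted p = 0.0191), and ACTB was higher by 0.25 ± 0.06 (adjusted p = 0.0208). After quantile normalization the GAPDH call was lost, with a difference of 0.02, and ACTB reversed to -0.02. Both calls were lost on leaving out single arrays, 3 for GAPDH and 4 for ACTB, with adjusted p up to 0.0617 and 0.0694. Differences of that size, as in the cytosolic ribosomal list, lie within what the choice of scaling moves.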

How the data were processed

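Biotin-labelled cRNA from 200 ng of total RNA per sample had been hybridized to Affymetrix 3′ arrays. The deposited table holds linear intensity values of 22277 probe sets, which the authors had brought to a common trimmed mean (500.1 on every array after trimming 2% at each end, as tested on the values). How probes were summarised is not given in the sources used here. The labels gave each array's line and replicate number, and 0 columns were left unmapped.

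Values below 16 were raised to 16 before taking log2. After leaving out 62 control probe sets, 22215 were tested without a filter on dim ones, 2611 of them at the floor on all 9 arrays. The annotation gave 1 symbol to 19064, several to 1043 and none to 2108. A model with a mean per line was fitted to all 9 arrays (lmFit and eBayes, limma 3.58.1, R 4.3.3). The contrast reported, shco4 minus shco2, was two-sided and adjusted by Benjamini-Hochberg over 22215 probe sets, with calls at an adjusted p under 0.05. Contrasts of each hairpin line against scramble were in the same fit, and their calls are not reported here. Errors after ± on differences are standard errors of this fit with 3 arrays per line. Prior and residual degrees of freedom were 0.53 and 6. For arrays, their number limits the precision.

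Named genes are, among probe sets with 1 symbol, called, with arrays that do not overlap and means not both at the floor, the 15 with the largest difference each way; up to 6 members of each list with the smallest p, from which examples are given; and a set taken whatever its values (DAND5, ID1, ID2, ID3, SMAD7, BMP4, INHBA, CD44, ALDH1A3, SOX2, NANOG, POU5F1, WWTR1, CDKN1A, CDKN1B, SMAD3, GAPDH, ACTB). Other members are named with their difference alone and were picked after their values were seen. The comparison and its 44 lists were chosen with earlier results of these data known. Alternatives were the 6 hairpin arrays alone, a replicate block, other floors, scalings, filters and variance priors, single arrays left out, and the mean of a gene's probe sets. Promoter sequences are from RefSeq.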

Additional observations from a re-analysis of the deposited data

How the results depend on the processing

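The 3 arrays per line set the limits. Counts of called probe sets stayed within 1.5 times the main 6881 under every alternative: 5715 to 6691 with 1 array left out, 6003 with the 6 hairpin arrays alone, 6166 with a floor of 64, and up to 7581 otherwise. Counts with the scramble mean between the lines ran from 4179 to 4632 with 1 array left out and from 4366 to 5139 otherwise, against 2299 higher and 2526 lower. Same-numbered arrays of the 2 lines deviated together with r of 0.178, 0.0576 and 0.213, and each correlated best with its own number, a hint from the data and not the design. The labels do not say what a number marks. With the replicate number as a block 7581 were called, 3695 higher and 3886 lower, and 6446 of the main calls were among them. Of 286 named probe sets 273 were called, and 259 were called whichever array was left out.

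Of 42 list counts of 4 or more in the leading direction, 30 stayed within 1.5 times. In shco4 with the 6 hairpin arrays alone, 8 mitosis genes, 2 collagen enzymes and 4 MAP kinase feedback genes were lower and 2 complement genes higher. After quantile normalization 9 oxidative phosphorylation subunits and 3 cytosolic ribosomal proteins were higher and 14 proteasome subunits lower, and ACTB and RPL27 reversed, to -0.02 and -0.04. With log2(value + 16) the higher counts were 8 and 11 for oxidative phosphorylation and cytosolic ribosomal genes, and without probe sets at the floor on all arrays 10 and 15. With only probe sets at 100 or more on at least 3 arrays 9 histone genes were higher, as fewer were tested. The mean of a gene's probe sets gave 4 endoplasmic reticulum chaperones higher. Leaving out 1 array gave ranges of 8 to 15 for mitosis, 3 to 6 for fatty acid, 8 to 14 for glycolysis, 3 to 6 for endoplasmic reticulum, 2 to 5 for collagen enzyme, 5 to 9 for Wnt and 4 to 9 for MAP kinase genes. Apart from the alternative with fewer probe sets tested, the cause was not tested.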
